A study of Rattus norvegicus with 34 samples.

Results

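Position 312 of TaqMan array card A was followed over the 17 rat libraries measured on that card. It is 1 of 384 numbered positions, or 1 of 380 once positions 11, 12, 35, and 36 are left out. The latter are 4 repeated wells of an abundant RNA, recognised from their nearly equal values. Position 312 was chosen by its own readout. Its Cp was 17 in pancreas and above 32 in every other library, so these values are a description and were not tested. Cp is the threshold cycle of the PCR, so a lower Cp means more template. The deposited values list a well without amplification at 50, and a Cp of at most 35 counts as detected in the methods of the study. The files number the positions without miRNA names, so position 312 was not assigned to a miRNA and no sequence is given for it.

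The study asked which miRNAs mark tissues with a tubular structure. RNA came from Sprague-Dawley rats of 4 weeks, male and female according to the methods, and neither a treatment nor a genetic change is given for any library. The 12 tissues were extracted with TRIzol, namely 3 glands beside pancreas (salivary gland, lacrimal gland, and prostate), small intestine, liver and bile duct, lung, kidney, spleen, and heart and skeletal muscle. The 5 compartments, glomerulus and proximal tubule of the kidney, intestinal villus, mammary gland, and bronchial gland, were cut from sections by laser microdissection and preamplified for 12 cycles before the card. Each tissue or compartment had 1 library per card, and the number of animals behind a library is not given in the sources used here. No difference between libraries could therefore be set against replicate error. In whole tissue, a smaller number of cells of a type and less RNA per cell cannot be told apart. The labelled tissues could not be checked against marker miRNAs, since the positions carry no names.

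miRNAs are short noncoding RNAs that repress messenger RNAs by pairing with them. A well of a TaqMan card measures 1 miRNA or control RNA, and a primer specific for the mature miRNA starts reverse transcription and a fluorescent probe reports the PCR. The pancreas consists mostly of acinar cells, which secrete digestive enzymes into ducts, with endocrine islets among them. Its duct joins the bile duct before the intestine. Among miRNAs, miR-217, miR-216a, and miR-216b are known for their expression in pancreas, and the files do not say which positions measure them.

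Amplification at position 312 was restricted to pancreas and bile duct. Pancreas had a Cp of 17 and bile duct a Cp of 32.1. The remaining 10 tissues (heart, skeletal muscle, kidney, lung, liver, small intestine, spleen, prostate, and the salivary and lacrimal glands) and all 5 microdissected compartments were listed at 50. Pancreas thus stood alone at the early end, bile duct was at a trace level 2.93 cycles inside the detection limit, and 15 libraries gave no signal. Bile duct reached the threshold 15.1 cycles after pancreas, a ratio of 34419 if every cycle doubled the template. For the 15 libraries without amplification the difference from pancreas was at least 18 cycles, counted to the limit of 35.

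**Figure D1:**
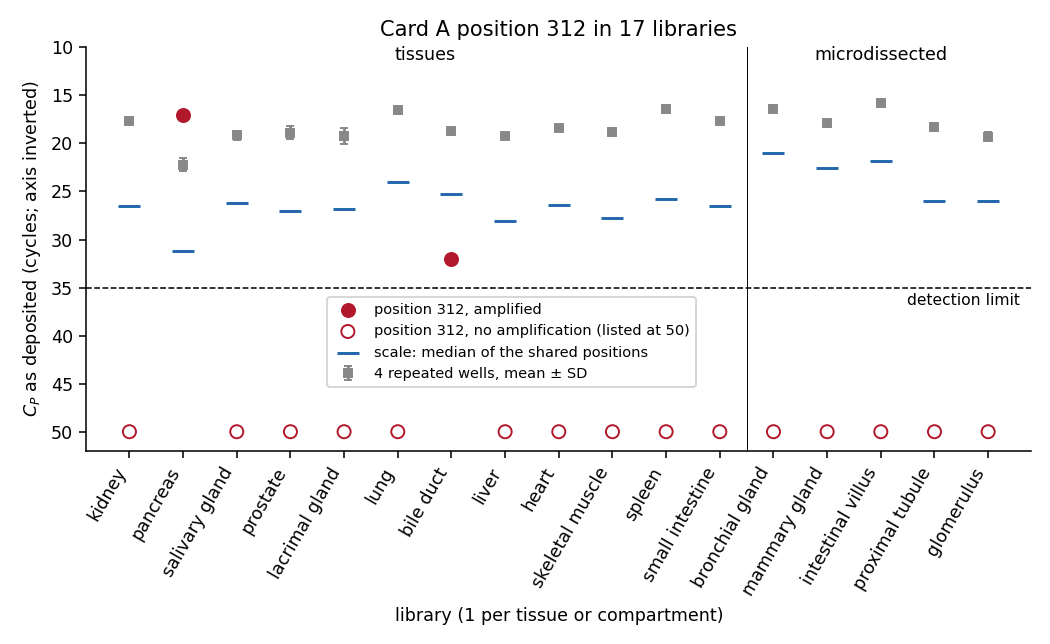
Cp as deposited (cycles, axis inverted so that more template is higher) of position 312 in 12 tissues and 5 microdissected compartments, with the mean ± SD of the 4 repeated wells (grey squares) and the scale of each library (blue lines). Position 312 lies at 17 in pancreas and 32.1 in bile duct and is listed at 50 in the other 15 libraries, while the repeated wells and the scale were latest in pancreas.

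The pancreas value was exactly 17, with no decimals in the file. The other amplified wells of pancreas on card A were given with 3 to 6 decimals, and none of them lay closer than 0.0026 cycles to a whole number. Of the 4265 amplified wells on card A, 2 held an exactly whole Cp, this well and 1 in lacrimal gland. Another 26 wells lay within 0.001 cycles of a whole number, 11 of them in proximal tubule and glomerulus and none in pancreas. The restriction of position 312 to pancreas rests on this single well. Whether the whole number is a measured threshold cycle or entered the table in another way was not tested. The bile duct value lay 0.0709 cycles from a whole number and was given with decimals.

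Within pancreas, position 312 ranked 1 of 380 by Cp. It came 5.98 cycles before the second position, 377, at a Cp of 22.98. It also preceded all 4 repeated wells of this library, which lay between 21.8 and 23.2 with a mean of 22.2 ± 0.68 (SD, n = 4 wells). A rank within a library does not move with any scale subtracted from that library. The same position ranked 169 of the 228 positions detected in bile duct.

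In the other 16 libraries the gap between the earliest and the second position had a median of 0.676 cycles. Only intestinal villus, where position 368 had a Cp of 10.3, came near the pancreas gap, at 5.54 cycles. Among these 16 libraries the next gap was 2.84 cycles in skeletal muscle. A position earlier than the mean of the repeated wells was found in 5 of the 17 libraries, and its distance from that mean was 5.21 cycles in pancreas and 5.52 cycles in intestinal villus. Over all 6460 wells of the 380 positions, 5 were earlier than position 312 in pancreas, 4 of them in intestinal villus and 1 in skeletal muscle.

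Expressed as relative template, 2 to the power of minus Cp, position 312 held 94.4% of the sum over the 125 positions detected in pancreas. This share takes all assays as equally efficient and doubling in every cycle, and it covers no replicate error. The earliest position of the other libraries held between 5.88% in mammary gland and 85.5% in intestinal villus, with a median of 18.1%. Without position 312, the largest share in pancreas was 26.5%, at position 377.

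**Figure D2:**
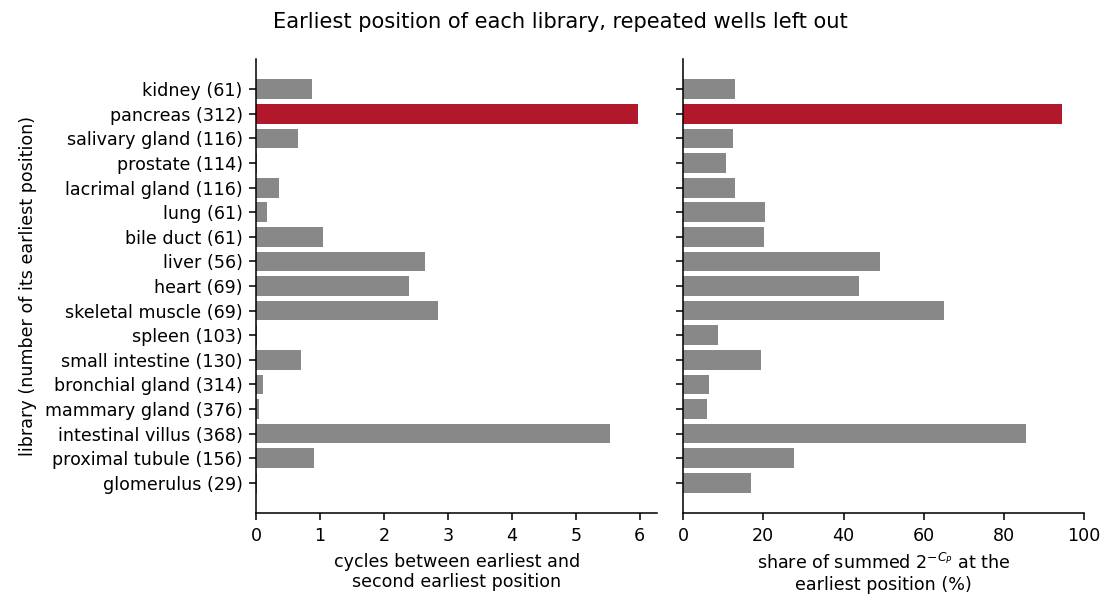
For each of the 17 libraries, the cycles between its earliest and second earliest position (left) and the share of the summed 2 to the power of minus Cp at the earliest position, in percent (right), with the number of that position in parentheses. Pancreas, in red, had a gap of 5.98 cycles and a share of 94.4%, followed by intestinal villus with 5.54 cycles and 85.5%.

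Pancreas was at the same time the library with the latest values. The scale of a library was the median Cp over the 78 positions detected in all 17 libraries. It was 31.2 in pancreas, against 23.97 to 28.0 in the other tissues and 21.0 to 26.0 in the preamplified compartments. The mean of the repeated wells, 22.2 in pancreas, was between 15.8 and 19.3 in the others. Pancreas also had the fewest detected positions, 125 against 174 to 249. Of the 78 shared positions, 77 were later in pancreas than in the median of the other 11 tissues, by 4.63 cycles at the median (quartiles 3.52 and 5.88). Position 312 was early in this late library, which restates the choice of the position by its low Cp in pancreas.

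The lateness was not the same at all positions. It was 5.24 cycles at the median over the 39 shared positions with the lower Cp in the other tissues and 3.79 cycles over the remaining 39. All shared positions had a Cp of at most 35 in pancreas too. This filter caps the lateness, most of all where the other tissues were late, so nothing is read from that difference. Against bile duct alone it was 6.21 cycles, with quartiles of 4.36 and 7.15. The single shared position earlier in pancreas, 257, was earlier by 5.26 cycles. The Spearman correlation across these positions was between 0.283 and 0.614 for pancreas with each other tissue, and 0.692 at the median among the other tissues. Positions of 1 card are not independent replicates. The part that the amount or quality of RNA in this library played in the late values was not tested.

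After the scale of each library was subtracted, position 312 was at -14.15 in pancreas and 6.79 in bile duct. The lead of pancreas over bile duct widened from 15.1 to 20.9 cycles, and the added 5.87 cycles are the difference between the scales of these libraries. With the mean of the repeated wells as the scale the added part was 3.48 cycles and the lead 18.6. The lead therefore moved by several cycles with the scale, but the deposited values alone gave 15.1 cycles.

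For undetected wells, set to 35 before scaling, only bounds could be given. In these 15 libraries the scaled Cp was at least 6.96 in liver, the nearest, and at least 13.97 in bronchial gland, the farthest. The scaled lead of pancreas was thus at least 21.1 to 28.1 cycles. Over all other libraries the median of these values and bounds put pancreas 22.8 cycles ahead. The bound in liver lay 0.163 cycles beyond the scaled bile duct value. The SD of the repeated wells in bile duct was 0.280 cycles (n = 4 wells). It is the spread of an abundant RNA within a library, and gives neither the error of a late well nor that between libraries. The liver value is also only a lower bound. How far bile duct and the undetected liver differ after scaling could therefore not be decided. The remaining undetected libraries have no order among themselves, because their bounds follow from their scales alone.

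The bile duct signal is a single late well. With a stricter limit of 32, bile duct would count as undetected, since its Cp exceeded that limit by 0.0709 cycles. The repeated wells give the spread only of an abundant RNA, and no repeated late well exists on the card to set against this value. Liver, which bile duct drains, was listed at 50, as was small intestine.

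The same comparison was made for all 380 positions. Where pancreas itself was detected, it led every other library by at least 3 scaled cycles at 12 of them (3.16%), position 312 included, and by at least 10 cycles at 2 (0.526%). A position detected in no library would have a pancreas lead of 3.11 scaled cycles from the scales alone, and such positions were not counted. Position 250, with the smallest of the 12 leads, stood at 3.21 cycles after scaling and 0.105 cycles as deposited. The contrast is the one that chose position 312, and nothing is read from these shares. Its lead of 20.9 cycles ranked 1, and the next, 10.1 cycles, belonged to pancreas at position 363. Over the other 11 tissues alone, pancreas led 13 positions (3.42%) after scaling. Without scaling, it led 4 positions over all other libraries (1.05%), and all 4 were among the 12. The lead of position 312 then ranked 2, after 15.9 cycles of intestinal villus at position 214, and it ranked 1 among the 12 tissues alone, before 12.8 cycles of lung at position 358.

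The number of positions led by pancreas thus depended on the scale. Among the tissues position 312 ranked 1 with and without the scale, and over all libraries it ranked 1 with it and 2 without it. These ranks rest on the contrast that chose position 312, so nothing is read from them. At the other 124 positions detected in pancreas, the nearest library was ahead of it by a median of 9.42 cycles as deposited and of 1.51 cycles after scaling. As deposited, the nearest library was often a preamplified compartment, such as bronchial gland or intestinal villus. The largest lead among these positions was 6.95 cycles as deposited and 10.1 cycles after scaling, both at position 363. Pancreas was earliest of all libraries at 11 of the 125 positions as deposited and at 30 after scaling.

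**Figure D3:**
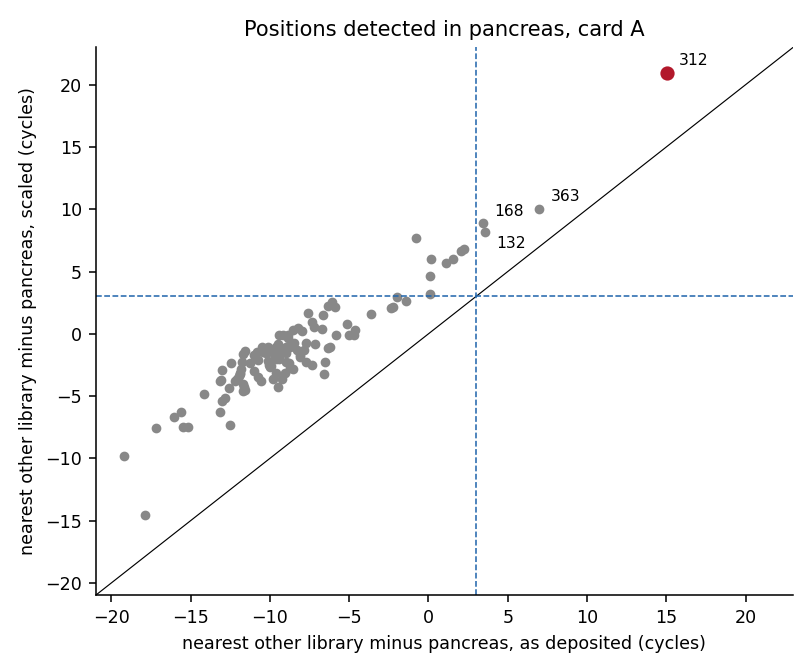
Each point is 1 of the 125 positions of card A detected in pancreas, with the Cp of the nearest other library minus that of pancreas, in cycles, as deposited (horizontal) and after scaling (vertical). Undetected wells are set to 35, the solid line marks equality, and the dashed lines mark 3 cycles. Position 312 (red) stands at 15.1 and 20.9 cycles, and the next position, 363, at 6.95 and 10.1 cycles.

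**Figure D4:**
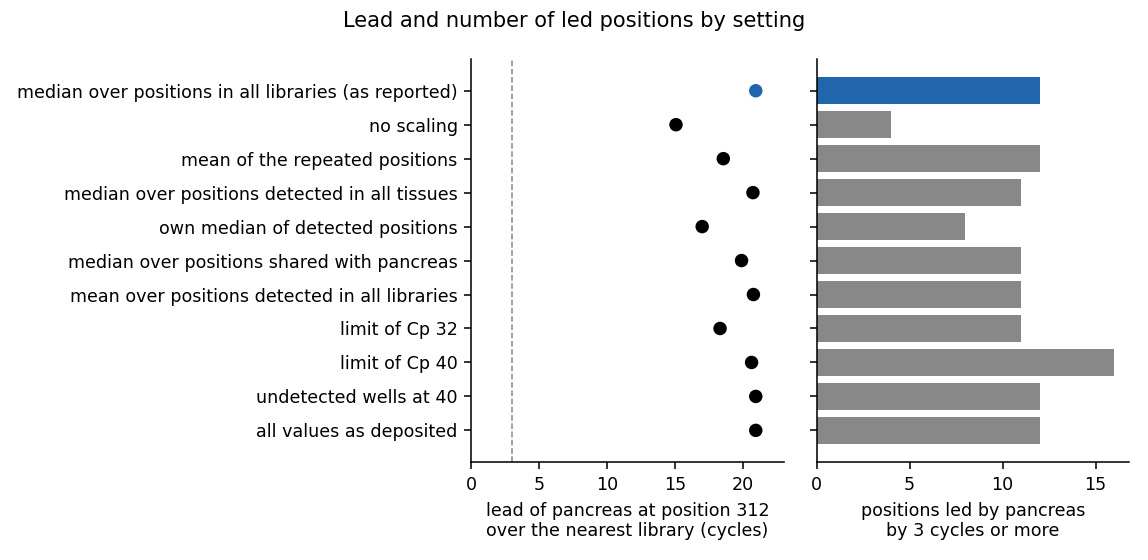
Lead of pancreas at position 312 over the nearest library, in cycles (left, with 3 cycles dashed), and number of positions led by pancreas by 3 cycles or more (right), for the reported scaling (blue) and 10 other settings. The lead ran from 15.1 to 20.9 cycles, and the number of positions from 4 without scaling to 16 with a limit of 40. With a limit of 32, and with the median over positions detected in all tissues, the nearest library was the undetected liver. The lead is then a lower bound.

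Trace levels outside pancreas were also looked at over all 12 positions led by pancreas. Besides position 312, 8 of the other 11 were detected in bile duct, which detected 60% of all 380 positions, so that nothing is read from this count. At these 8 bile duct followed pancreas by 0.157 to 8.13 cycles as deposited, with a median of 4.47. At position 312 it followed by 15.1 cycles. The Cp of the 8 positions in pancreas was 23.7 (position 257) or later, and all 8 were detected in bile duct. With the detection limit, bile duct could therefore not follow by 15.1 cycles at any of them, and nothing is read from the longer lag at position 312. Bile duct was the earliest other library at 3 of the 12 positions (312, 168, and 193), and small intestine at 6. Of the 12 positions, 9 were detected in bile duct, 8 in small intestine, and 7 in mammary gland, where 60%, 61.8%, and 60.5% of all positions were detected. The number was 6 each in lacrimal gland and lung (52.9% and 65.5% of all positions). It was 5 each in kidney, spleen, and bronchial gland (62.9%, 62.1%, and 65.3%). It was 4 each in heart, skeletal muscle, and intestinal villus (57.4%, 55.8%, and 57.1%), and 3 each in salivary gland and prostate (54.5% and 50.8%). It was 2 in liver (45.8%) and 1 each in proximal tubule and glomerulus (48.9% and 46.6%). The 12 positions were chosen for a lead of pancreas over every other library, so nothing is read from these counts. Position 312 was 1 of the 4 not detected in small intestine. How pancreatic tissue or RNA in the bile duct library bears on these values was not tested.

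The positions most like position 312 were taken as the 5 with the highest Pearson correlation of scaled Cp over the 17 libraries, undetected wells at 35. They were 363 (r = 0.96), 168 (r = 0.95), 132 (r = 0.90), 10 (r = 0.88), and 57 (r = 0.87). All libraries share their scale between positions, and a position detected in no library had r = 0.80 with position 312 for that reason alone. The coefficients are therefore a description of mostly 1 library, and the values behind them differ.

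Position 363 came closest. Its Cp was 28.0 in pancreas, and it was detected in no other library, with late amplification at 39.8 in lacrimal gland and 41.2 in salivary gland. Unlike position 312, it gave no signal in bile duct. Position 168 was detected in 12 libraries, with a Cp of 26.9 in pancreas, 30.3 in bile duct, and 32.4 in skeletal muscle. It is thus a widely expressed position with a lead of 8.87 scaled cycles in pancreas.

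Position 132 had a Cp of 27.4 in pancreas, 31.0 in small intestine, 31.5 in lacrimal gland, and 34.0 in lung. Position 57 had 26.7 in pancreas, 28.95 in small intestine, and 29.5 in intestinal villus. At position 10 the Cp was 29.4 in pancreas and 28.5 in the preamplified intestinal villus, so that pancreas led there only after scaling. The earliest of the 5 in pancreas was position 57, 9.71 cycles after position 312.

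**Figure D5:**
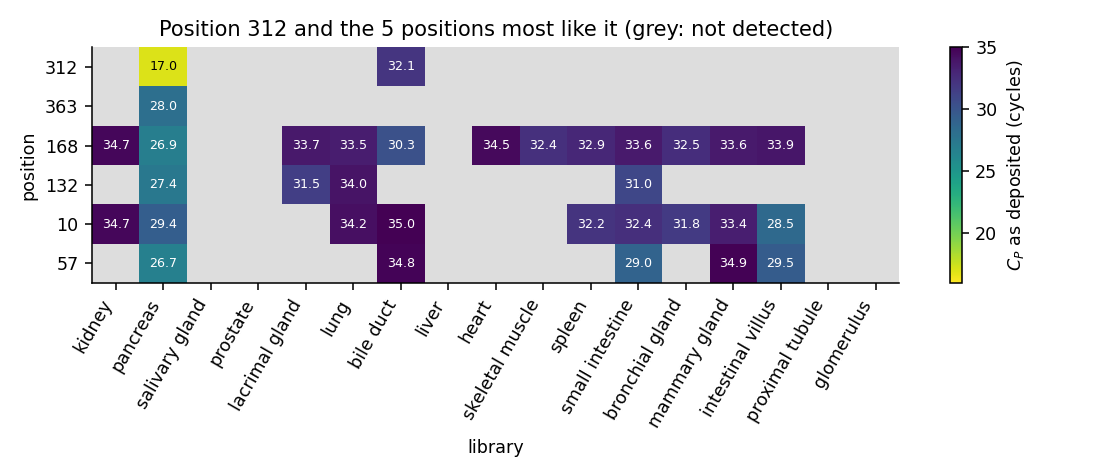
Cp as deposited (cycles, colour and number) of position 312 and of the 5 positions with the highest correlation to it, in the 17 libraries; grey cells were not detected at a limit of 35. Position 312 was detected in pancreas and bile duct and position 363 in pancreas alone, while the other 4 were detected in 4 to 12 libraries.

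Isolated signals like that of position 312 were mostly late. Of the 380 positions, 51 were detected in only 1 or 2 libraries, and their earliest Cp had a median of 32.9. Position 312 was the earliest of the 51, followed by position 201 at 24.3 in mammary gland. Since position 312 was chosen for an early Cp in pancreas and late or absent signals elsewhere, its place here restates that choice. Another 56 positions were detected in no library.

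The wells around position 312 were quiet in pancreas. The repeated positions 11, 12, 35, and 36 form a square block if the card is read as 16 rows of 24 wells, which places position 312 in row 13 and column 24, at the edge of the card. Its 5 neighbours in this layout (287, 288, 311, 335, and 336) were all listed at 50 in pancreas. Pancreas detected only 32.9% of the positions of the card, repeated ones left out. Over all libraries, 25 of the 85 wells of these neighbours were detected. Of the 16 wells in column 24, 4 were detected in pancreas, position 312 included. Nothing is therefore read from the neighbours listed at 50 in pancreas. In bile duct, position 311 had a Cp of 32.7 and position 335 a Cp of 37.4, and the other 3 neighbours were listed at 50. The layout was read from the values of the repeated wells and is not stated in the files.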

How the data were processed

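RNA of 12 rat tissues and 5 microdissected compartments was measured by the authors on TaqMan Rodent MicroRNA Array cards A and B and they took Cp values with the SDS software and RQ Manager. The deposited values are Cp before normalization to U6. The kit is named Rodent in the design text and Human in the sample labels. Card A was used here, and card B only to count whole-number values.

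Cp values of card A were used as deposited and after subtracting, from each library, the median over the 78 positions detected (Cp of at most 35) in all 17 libraries, without positions 11, 12, 35, and 36. Wells above 35 were set to 35 in differences, which are then lower bounds. A lead is the difference between the first and the next library, and counts from 3 cycles where the first library was detected. No test was run, since each library is single, and the depth of a card is given only by its number of detected positions. Named positions are position 312, the 5 most correlated with it, the 5 with the largest pancreas leads, and the neighbouring wells; the other positions in the text were named after their values were seen. The position, the lists, and the scale were chosen with earlier results of these data known. The search for leads was tested on simulated data with planted leads. That run checks the computation and does not give the error of a lead in the real libraries. Values were computed with pandas 2.3.3 and numpy 2.4.6 under Python 3.11.15, and drawn with matplotlib 3.10.9.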

Additional observations from a re-analysis of the deposited data

How the results depend on the processing

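No scale subtracted from pancreas could change the rank of position 312 there. With the repeated wells included, position 312 was still the earliest position of pancreas. Its lead over the nearest library, the same value over all libraries and over tissues, was 20.9 cycles. The lead was 15.1 without scaling, 18.6 with the mean of the repeated wells, and 17.0 with the own median of each library. With the positions shared with pancreas it was 19.9. With a limit of 32 it was at least 18.3, since the nearest library was then liver, undetected and set to 32. The difference from the median of the other libraries was 22.8 cycles, and 18, 21.8, and 19.8 with no scaling, the repeated wells, and the own median; 19.8 and 27.4 with limits of 32 and 40; and 27.8 and 37.8 with undetected wells at 40 or as deposited, by construction. With each other library left out in turn, the lead ran from 20.7 to 21.1 cycles, the difference from 22.7 to 22.9, and the number of positions led by pancreas from 12 to 14. The lead of 21.1 was that without bile duct. It is a lower bound, since every other library was then undetected at position 312. That number was 12, and 4 without scaling and 2 with a lead of 10 cycles. It was 11 without the well at exactly 17, which by construction only takes position 312 off the 12. That setting was chosen after the data were seen. With a limit of 32, 0 other libraries were detected at position 312. The share of 94.4% was 85.0% with the repeated wells included. Of the 5 most similar positions, 0 stayed with Spearman correlation and 3 each without scaling and with the repeated wells. Where the setting does not fix the change, the cause was not tested. No paired analysis was possible because the libraries are single.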

Other observations

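Pancreas was detected at 6 of the 51 positions found in only 1 or 2 libraries. On the whole card, repeated positions left out, it detected 125 positions, or 32.9%. The counts of the other libraries among the 51 were not compared, so nothing is read from the count of 6. Apart from positions 312 and 363, these 6 positions were late in pancreas, at a Cp of at least 33.6. Position 363 had a Cp of 28.0 and position 250 a Cp of 34.9, both without detection elsewhere. Position 281 was at 33.6 in pancreas and 27.6 in mammary gland, position 323 at 33.9 and 31.7 in lacrimal gland, and position 348 at 34.7 and 32.7 in salivary gland.

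The second earliest position of pancreas, 377, was also early in prostate, salivary gland, and bile duct. Its Cp as deposited was 22.98 in pancreas, 21.5 in prostate, 22.8 in salivary gland, and 23.2 in bile duct. It was 27.8 in lacrimal gland, 27.6 in the preamplified intestinal villus, 31.5 in mammary gland, 32.9 in bronchial gland, and between 31.9 and 35.97 in the other 9 libraries. This position, named after its values were seen, separated the 4 early libraries from the rest by 4.41 cycles without scaling.

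Besides position 312 in pancreas, card A held a value of 33 at position 383 in lacrimal gland, and card B, of 3297 amplified wells, held 1 such value, 24 at position 291 in mammary gland. These values are given without an explanation.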
